A study of Mus musculus with 14 samples.

Results

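The immunoglobulin genes encode the heavy and light chains of antibodies, and their RNA is made by cells of the B lineage. They were followed here as a trace of B and plasma cells in sorted mouse bone marrow. The members were all rows annotated as immunoglobulin constant (C), variable (V), joining (J) or diversity (D) genes, without pseudogenes, that had at least 10 counts summed over the 14 libraries. This gave 202 genes of the 55335 in the count table. Of 264 rows of these gene types, 62 fell under the minimum, and 30 of those had 0 counts. Just inside the limit lay 1 gene with 10 counts and 3 genes with 11, and just outside it 2 genes with 9 and 4 genes with 8. The members were chosen by their summed counts, so their presence in these libraries is a description and not a finding. The heavy chain contributed 5 C, 91 V, 4 J and 7 D genes, the kappa light chain 1 C, 81 V and 5 J genes, and the lambda light chain 3 C, 3 V and 2 J genes.

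Cells came from bone marrow of mice of the genotype Cdh5 CRE Rosa26 TdTomato, in which Cre driven by the promoter of the endothelial gene Cdh5 switches on a red fluorescent reporter. The sort kept tdTomato-positive cells without lineage markers and without CD45, a gate meant to leave out blood cells, and full-length cDNA of small RNA amounts was sequenced. All mice carried the Cre and the reporter, and all were harvested on day 8. Untreated mice gave 4 libraries. Total body irradiation (TBI) with 500 cGy from a caesium source gave 5. Radioimmunotherapy (RIT), in which an antibody carries a radionuclide, here named as astatine-211 for the CD45 antibody, gave 3 libraries with a non-targeting IgG (IgG RIT, 20 µCi) and 2 with an antibody against CD45 (CD45 RIT, 20 µCi). The age and strain of the mice, and whether animals were pooled, were not given in the sources used here. Nothing in the labels states that libraries came from separate animals, so p-values measure only the spread between these libraries.

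An antibody gene is assembled by joining a V, a D and a J segment in the heavy chain, and a V and a J segment in a light chain, upstream of the constant gene. Precursor B cells first assemble the heavy chain, make the mu constant region and pair it with a surrogate light chain encoded by Igll1 and Vpreb1. Kappa or lambda light chains follow, and plasma cells, often after switching to gamma or alpha constant genes, secrete antibody in large amounts together with the joining chain Jchain.

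TBI replicate 6 had the fewest counts, 16412779, and untreated replicate 1 the most, 31077588. Cdh5, the gene whose promoter drives the Cre, had 0 to 6 counts in every library. The sort selected the reporter and not Cdh5 RNA, and reporter RNA was not examined here. These counts therefore cannot decide whether the sort label holds. Among other endothelial genes, Pecam1 had 44 to 1957 counts in all groups but CD45 RIT, where it had 6 and 4. Kdr, Plvap and Esam had 2390, 2561 and 1004 counts in CD45 RIT replicate 2, above every other library, and 1, 223 and 44 in replicate 1. Of 14 listed endothelial genes 12 were tested in the edgeR fit described below. In CD45 RIT against untreated 2 were called higher and 3 lower, beside 14.5% and 18.6% of all genes. Haemoglobin genes took 0.645 to 1.24% of counts in untreated libraries, 2.05 to 3.66% in 4 TBI libraries and 15.7% in TBI replicate 6. Their share was 11.7 to 12.2% in IgG RIT libraries, and 17.8% and 4.54% in CD45 RIT replicates 1 and 2. Summed CPM (counts divided by the total of the library and scaled to a common size) was 38617 and 55957 for 10 stromal genes in the CD45 RIT libraries and 334 to 7816 in all others. Untreated libraries and TBI replicates 1, 3, 4 and 5 carry library numbers 1 to 9, while TBI replicate 6 and all RIT libraries carry 10 to 16, so the RIT groups and this numbering cannot be told apart. In bulk RNA, fewer cells of a type and less RNA per cell cannot be told apart either.

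The segments that recur below are shown first, because their length and letters set what a read can be assigned to. Sequences were read 5′ to 3′ on the coding strand from the reference of build GRCm38. The heavy locus lies on chromosome 12 and all heavy segments shown are on its minus strand. Ighd4-1, an 11-base D segment at chr12:113430528-113430538, is the D segment nearest to the J cluster. Ighj1 (chr12:113429781-113429833) and Ighj4 (chr12:113428514-113428567) are the heavy J segments with the most counts. Igkj1 (chr6:70722562-70722599, plus strand) and Iglj1 (chr16:19063225-19063262, minus strand) are light chain J segments. Capitals in a J segment mark the motif that encodes the tryptophan or phenylalanine, a glycine, any residue and another glycine. It is TGGGG in heavy or TTNGG in light chains, then any 4 bases and GG. The D segment is in capitals throughout.
Ighd4-1: CTAACTGGGAC
Ighj1: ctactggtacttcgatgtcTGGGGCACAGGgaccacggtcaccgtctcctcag
Ighj4: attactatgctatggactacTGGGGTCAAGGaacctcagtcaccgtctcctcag
Igkj1: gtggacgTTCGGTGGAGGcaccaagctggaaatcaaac
Iglj1: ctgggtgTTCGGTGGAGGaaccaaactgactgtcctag

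The motif was found on the coding strand in 3 of 4 heavy J members and in 6 of 7 light J members, against 0.591% and 0.806% of 54992 other transcripts, each searched over its last 60 bases. For V genes the last 60 bases are shown, with the motif TANTNNTGN in capitals. In the genes shown it encodes tyrosine, a residue whose codon starts with T, and cysteine. N stands for any base, so a match elsewhere need not encode these residues. The V genes shown are those that led a library or fell in several comparisons: Ighv14-2 (chr12:113994469-113994528), Ighv1-81 (chr12:115920279-115920338), Ighv1-82 (chr12:115952538-115952597), Ighv1-26 (chr12:114788372-114788431), Igkv13-84 (chr6:68940008-68940067, plus strand), Igkv12-41 (chr6:69858420-69858479, minus strand) and Iglv1 (chr16:19085017-19085076, minus strand).
Ighv14-2: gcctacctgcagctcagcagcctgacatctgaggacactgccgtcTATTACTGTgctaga
Ighv1-81: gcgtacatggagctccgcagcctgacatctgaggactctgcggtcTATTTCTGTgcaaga
Ighv1-82: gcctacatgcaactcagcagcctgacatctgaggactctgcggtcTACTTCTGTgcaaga
Ighv1-26: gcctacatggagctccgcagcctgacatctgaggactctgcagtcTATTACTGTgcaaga
Igkv13-84: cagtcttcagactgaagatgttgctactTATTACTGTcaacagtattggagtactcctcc
Igkv12-41: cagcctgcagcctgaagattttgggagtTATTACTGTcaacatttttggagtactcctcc
Iglv1: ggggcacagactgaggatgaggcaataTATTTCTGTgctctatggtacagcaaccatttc

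This motif was present on the coding strand in 168 of 175 V members (96%) and in 6.22% of the same window of other transcripts (13.6% on either strand). The Ighv1 ends above differ from each other at few bases, and V genes are close copies: 140 of the 175 V members share at least 1 run of 50 bases with another V row, and a median of 19.9% of a member's 50-base runs is shared. Ighv1-72 shares 92.5% of its runs and Igkv19-93 0%. The lambda genes are also similar, with 94.9% identity between Iglc2 and Iglc3 and 96.7% between Iglv1 and Iglv2. How reads shared by such copies were assigned is not given in the sources used here, so counts of single V and lambda genes are uncertain to that extent. Another annotated gene overlaps 15 of the 202 members, 6 of them on the opposite strand, among them Iglc1, Iglc3 and Iglv1. Reads of partners on opposite strands cannot be told apart without strand. Igkc, the kappa J members and Iglc2 overlap a gene on the same strand, where strand would not separate the reads.

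Immunoglobulin RNA was present in every library and was highest in untreated and TBI samples. All members together made up 573, 1178, 3266 and 725 CPM in untreated replicates 1 to 4. They made up 777, 924, 607, 1083 and 83.8 CPM in TBI replicates 1, 3, 4, 5 and 6. The IgG RIT libraries had 146, 66.4 and 308 CPM and the CD45 RIT libraries 43.4 and 87.0 CPM. Untreated replicate 3 was high and TBI replicate 6 low for its group, and without TBI replicate 6 no RIT library reached the level of any untreated or TBI library. The untreated mean was 1435 ± 1247 CPM (SD, n = 4) and the TBI mean 695 ± 384 (SD, n = 5). The mean was 173 ± 123 (SD, n = 3) after IgG RIT, and after CD45 RIT it was 65.2 ± 30.8 (SD, n = 2). These sums are given without a test because the counts chose the members.

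**Figure D1:**
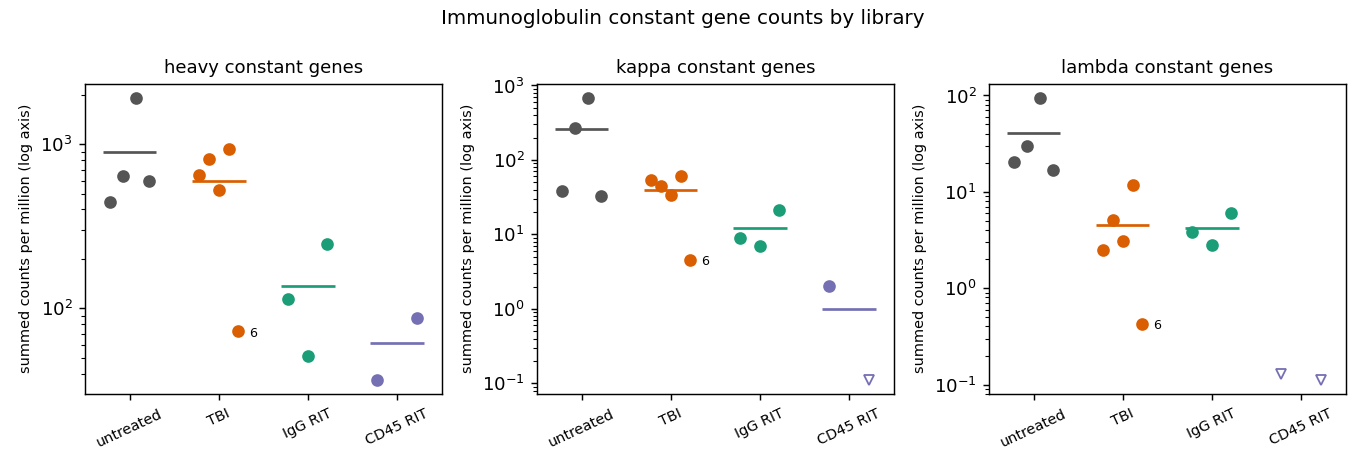
Summed CPM (log axis) of heavy, kappa and lambda constant genes in each library, 1 point per library, with a line at each group mean. Open triangles at the lower edge stand for libraries with 0 counts, which are both CD45 RIT libraries for lambda and replicate 2 for kappa. The TBI point marked 6 is TBI replicate 6, the lowest of its group in all 3 panels.

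Constant genes carried most of this signal, with 1197 ± 1015 CPM (SD, n = 4) in untreated libraries against 229 ± 229 for V, 8.06 ± 6.19 for J and 1.54 ± 1.02 for D genes. The same order was seen in TBI (644 ± 358, 38.4 ± 20.3, 9.10 ± 5.56 and 3.04 ± 2.16 CPM, SD, n = 5). J and D segments are short, and sums are not scaled by length, so these values do not order the gene types by level. In untreated libraries the heavy chain made up 998 ± 789, kappa 376 ± 422 and lambda 62.4 ± 56.4 CPM (SD, n = 4). TBI libraries had 630 ± 351, 59.0 ± 31.8 and 6.17 ± 5.78 CPM of the 3 chains (SD, n = 5), and those of IgG RIT 149 ± 108, 17.1 ± 11.8 and 7.30 ± 3.17 (SD, n = 3). After CD45 RIT the heavy chain was at 64.0 ± 32.6 CPM (SD, n = 2), kappa was at 2.44 CPM in replicate 1 and 0 in replicate 2, and lambda was at 0 in both. Without untreated replicate 3 the untreated means were 606, 185 and 34.4 CPM for heavy, kappa and lambda, so that the heavy mean lay below that of TBI. Without TBI replicate 6 the TBI means were 769, 71.7 and 7.56 CPM, and without TBI replicate 5 the lambda mean was 3.77 CPM. These omissions were chosen after seeing the data.

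Ighm, the mu constant gene of IgM (chr12:113418558-113422730), was the most abundant member in raw counts. Its counts were 13387, 15204, 31957 and 14688 in untreated, and 14858, 19135, 9375, 21704 and 1145 in TBI. They were 2429, 1165 and 5592 in IgG RIT, and 849 and 2332 in CD45 RIT. Untreated and TBI libraries overlapped, apart from TBI replicate 6, and every RIT library lay below every untreated library. Per kilobase of exon, the untreated level of Ighm was 315 ± 170 CPM (SD, n = 4) and the TBI level 260 ± 135 (SD, n = 5). The IgG RIT level was 87.0 ± 63.4 (SD, n = 3), and that of CD45 RIT 43.4 ± 22.6 (SD, n = 2).

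Igkc, the only kappa constant gene (chr6:70726435-70726966), had 1200, 7501, 16956 and 836 counts in untreated replicates 1 to 4. It had 1294, 1092, 665, 1538 and 75 counts in TBI, 192, 158 and 484 in IgG RIT, and 47 and 0 in CD45 RIT. Untreated replicates 2 and 3 stood far above replicates 1 and 4, which lay within the range of TBI. Per kilobase, its mean level in untreated libraries was 400 ± 475 CPM (SD, n = 4), and 64.9 ± 33.9 (SD, n = 5) in TBI.

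The switched heavy isotypes were unevenly spread. Igha, the alpha constant gene of IgA, had 0, 882, 14563 and 10 counts in untreated libraries, 391 in TBI replicate 4 and 0 or 1 in the other TBI libraries. It had 21, 0 and 1 in IgG RIT and 0 and 1 in CD45 RIT. Ighg1, a gamma constant gene, had 1016 counts in untreated replicate 2 and at most 4 in any other library. These 2 genes were thus carried by 1 to 3 libraries each. Ighg2b, another gamma constant gene, was present in all untreated libraries (445, 311, 647 and 127 counts) and all TBI libraries (468, 347, 389, 1341 and 7 counts). It had 0 counts in all 5 RIT libraries. The delta constant gene Ighd had 54 to 335 counts in untreated and 35 to 375 in TBI, but only 39 counts in IgG RIT replicate 3 and 6 in CD45 RIT replicate 1, with 0 in the other 3 RIT libraries. Ighg2c, Ighg3 and Iglc4 had 0 counts everywhere and Ighe had 1, so none of them was a member.

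As shares of heavy constant counts, Ighm took 96.4% (95% Wilson interval 96.1 to 96.7), 86.7, 67.3 and 97.8% in untreated replicates 1 to 4. It took 90.8 to 96.8% in TBI, 99.1 to 99.9% in IgG RIT and 99.3 and 99.96% in CD45 RIT. The lower shares in untreated replicates 2 and 3 were taken up by Igha at 5.03 and 30.7%, and in replicate 2 also by Ighg1 at 5.79%. Such intervals cover counting error only. Amplified copies of a molecule may be counted as separate reads, and their handling is not given in the sources used here.

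The lambda constant genes Iglc1 and Iglc2 lay lower in all TBI than in all untreated libraries. Iglc1 had 292, 281, 1051 and 168 counts in untreated and 11, 31, 16, 47 and 1 in TBI. It had 28, 51 and 38 in IgG RIT and 0 in both CD45 RIT libraries. The untreated libraries did not overlap any treated group. Iglc2 ran parallel, with 232, 278, 565 and 92 counts in untreated, 7, 12, 7, 4 and 0 in TBI, 0, 0 and 25 in IgG RIT and 0 and 0 in CD45 RIT. Iglc3 differed from them, with 105, 271, 731 and 167 counts in untreated but 42, 81, 38, 241 and 6 in TBI, so that TBI replicate 5 lay within the untreated range. IgG RIT libraries had 55, 14 and 74 counts of Iglc3 and CD45 RIT libraries 0. Iglc3 took 16.7 to 39.1% of lambda constant counts in untreated libraries, and 65.3 and 82.5% in TBI replicates 3 and 5, the 2 TBI libraries with at least 100 such counts. IgG RIT replicate 3, with 137 such counts, had 54.0%, also above the untreated range.

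The kappa share of light chain constant counts was 65.6% (95% Wilson interval 63.4 to 67.8), 90.0, 87.8 and 66.2% in untreated replicates 1 to 4. It was 95.6, 89.8, 91.6 and 84.0% in TBI replicates 1, 3, 4 and 5, and 69.8, 70.9 and 77.9% in IgG RIT. The 4 TBI libraries lay above the lower pair of untreated libraries, and 2 of them above all 4, while the IgG RIT libraries lay between the lower and upper pair of untreated libraries. TBI replicate 6 and both CD45 RIT libraries had under 100 light chain constant counts and are left out.

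**Figure D2:**
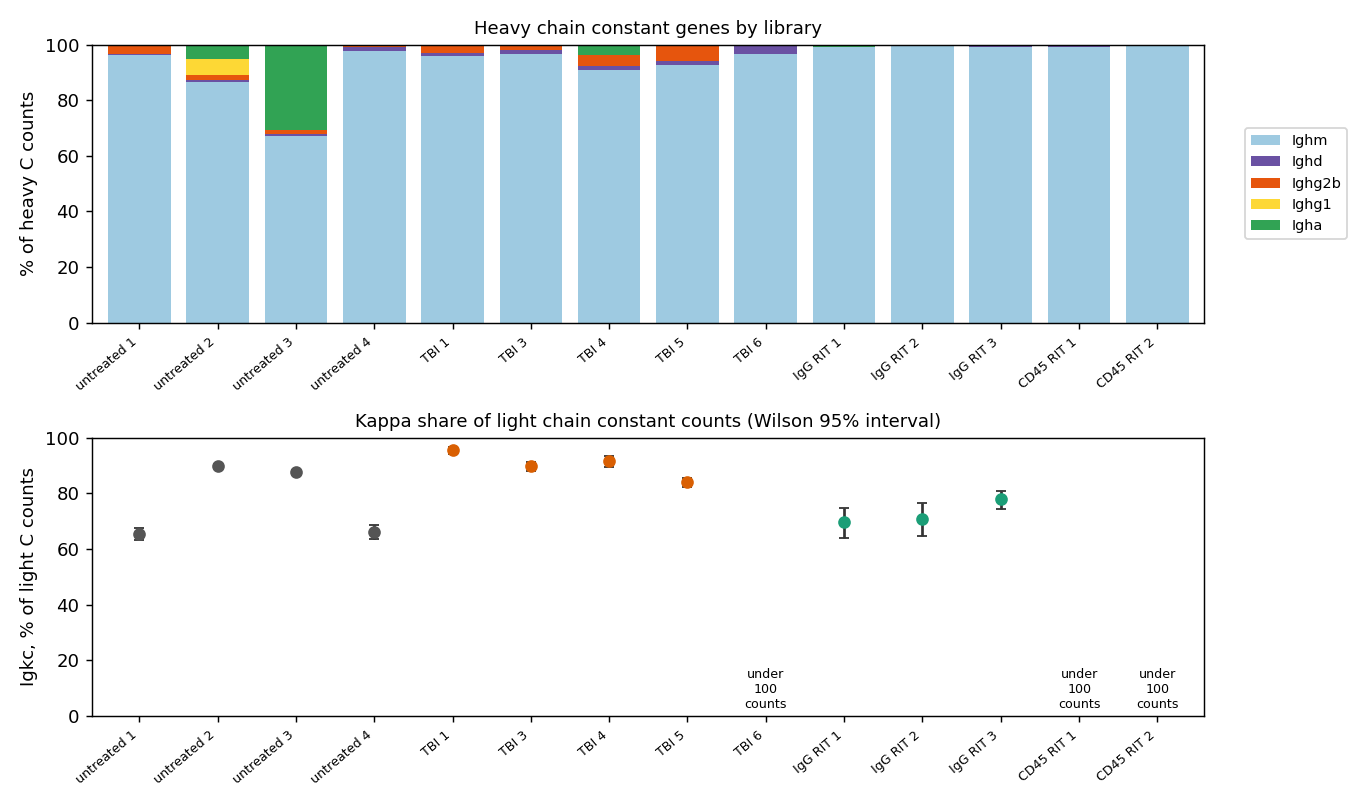
Upper panel, shares of the 5 heavy constant genes in percent of heavy constant counts, 1 stacked bar per library: Ighm fills most of each bar and Igha reaches 30.7% in untreated replicate 3. Lower panel, Igkc in percent of light chain constant counts with Wilson 95% intervals, which spans 65.6 to 90.0% in untreated and 84.0 to 95.6% in TBI; 3 libraries under 100 counts have no point.

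The heavy J genes followed Ighm only in part. Ighj1 had 55, 75, 224 and 70 counts in untreated and 123, 142, 49, 192 and 9 in TBI. It had 6, 5 and 12 counts in IgG RIT and 0 in both CD45 RIT libraries. For every 100 counts of Ighm, all heavy J genes together had 0.895 ± 0.146 counts without treatment (SD, n = 4). The ratio was 1.39 ± 0.122 after TBI (SD, n = 5), while IgG RIT had 0.638 ± 0.146 (SD, n = 3). The lowest TBI library, at 1.27, lay above the highest untreated library, at 1.06. Kappa J genes had 17 to 127 counts each over all libraries, and the lambda J genes Iglj1 and Iglj3 had 32 and 34.

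Ighd4-1 had its highest counts in TBI libraries. It had 2, 8, 13 and 8 counts in untreated, and 38, 79, 15, 83 and 3 in TBI. It had 2, 1 and 1 in IgG RIT and 0 in CD45 RIT. For every 100 counts of heavy J genes, it had 1.87, 7.02, 3.82 and 5.63 counts in untreated and 18.4, 30.0, 12.6, 24.1 and 20 in TBI, without overlap. The value of TBI replicate 6 rests on 3 of 15 counts, and those of IgG RIT (12.5, 11.1 and 3.70) rest on 16, 9 and 27 heavy J counts. As background, transcripts of the heavy locus before its rearrangement are known to start beside this D segment. In the edgeR fit described below, the log2 difference of TBI to untreated was 2.63 ± 0.82 (SE), with an unadjusted p of 0.00793 and an adjusted p of 0.101. It did not pass the threshold of 0.05. DESeq2 gave an adjusted p of 0.0101, and a fit of only these 2 groups 0.0409. An 11-base segment collects reads that reach into its flanks, and Ighd4-1 was singled out after its values were seen. The other 6 D genes had 16 to 123 counts each in all and were at 0 in both CD45 RIT libraries.

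V genes were used unevenly, and a different gene led in most libraries. In untreated replicate 3, Ighv1-82 took 3200 of 5924 heavy V counts (54.0%, 95% Wilson interval 52.7 to 55.3) and Igkv13-84 took 3384 of 6491 kappa V counts (52.1%). In untreated replicate 2, Ighv1-26 took 492 of 1463 heavy V counts (33.6%) and Igkv12-41 took 3373 of 4608 kappa V counts (73.2%). Both are the libraries with high Igkc and Igha. Untreated replicates 1 and 4 were more even: the leading heavy V genes, Ighv1-81 and Ighv14-2, took 11.4% and 5.33%, and the leading kappa V genes, Igkv8-21 and Igkv19-93, took 8.09% and 16.1%. The inverse Simpson number, the number of equally used genes that would give the same evenness, was 18.9 and 35.7 for heavy V genes in these replicates, and 6.99 and 3.38 in replicates 2 and 3.

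After TBI, Ighv14-2 led the heavy V counts of replicates 1, 3 and 5 with 19.8, 18.3 and 17.4%, and was second to Ighv1-63 (35.6%) in replicate 4 with 12.0%. In untreated libraries the share of Ighv14-2 was 5.17, 3.42, 1.62 and 5.33%, and in IgG RIT replicates 1 and 3 it was 4.17 and 3.86%. Among libraries with at least 100 heavy V counts, its share was higher in each of the 4 TBI libraries than in any other. Below that limit, IgG RIT replicate 2 had 30 of its 52 heavy V counts from Ighv14-2, a larger part than in any TBI library, and TBI replicate 6 had 2 of 26. Its CPM did not pass edgeR's test in TBI against untreated (log2 difference 0.51 ± 0.73, SE, adjusted p = 0.815), and the share was singled out after seeing the values. Kappa leaders in TBI were Igkv12-89 (42.1%), Igkv2-109 (35.2%) and Igkv1-135 (54.4 and 17.0%). In IgG RIT, Ighv5-17 (14.4%) and Ighv1-50 (12.5%) led in replicates 1 and 3, and Igkv19-93 led the kappa V counts of replicate 3 with 30.4%. CD45 RIT replicate 1 had exactly 100 heavy V counts, spread over 3 genes above 3 counts, of which Ighv3-8 took 38%.

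Over the 11 libraries with at least 100 heavy V counts, 8 different genes led, and Ighv14-2 led in 4. Over 9 libraries with as many kappa V counts, 7 different genes led. Iglv1 led all 4 libraries with at least 100 lambda V counts, at 68.4 to 86.2%, and only 3 lambda V genes were members. By mean share over the libraries, the leading heavy V genes were Ighv14-2 (8.27%), Ighv1-82 (6.58%), Ighv1-26 (4.75%), Ighv1-52 (3.71%) and Ighv1-53 (3.65%). The leading kappa V genes were Igkv19-93 (11.6%), Igkv1-135 (10.2%), Igkv12-41 (8.43%), Igkv13-84 (6.04%) and Igkv12-89 (5.28%). Most of these means rest on 1 library. Without untreated replicate 3 the mean of Ighv1-82 was 1.84% and that of Igkv13-84 0.279%, and without untreated replicate 2 that of Ighv1-26 was 1.86% and that of Igkv12-41 0.334%. Without CD45 RIT replicate 1, with its 100 heavy V counts, Ighv1-52 was at 0.982% and Ighv1-53 at a similar mean. Without TBI replicate 4 the mean of Igkv1-135 was 4.66%, and without TBI replicate 1 that of Igkv12-89 was 0.671%. Ighv14-2 and Igkv19-93 remained at 7.12% and 8.62% without their highest library, TBI replicate 1.

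**Figure D3:**
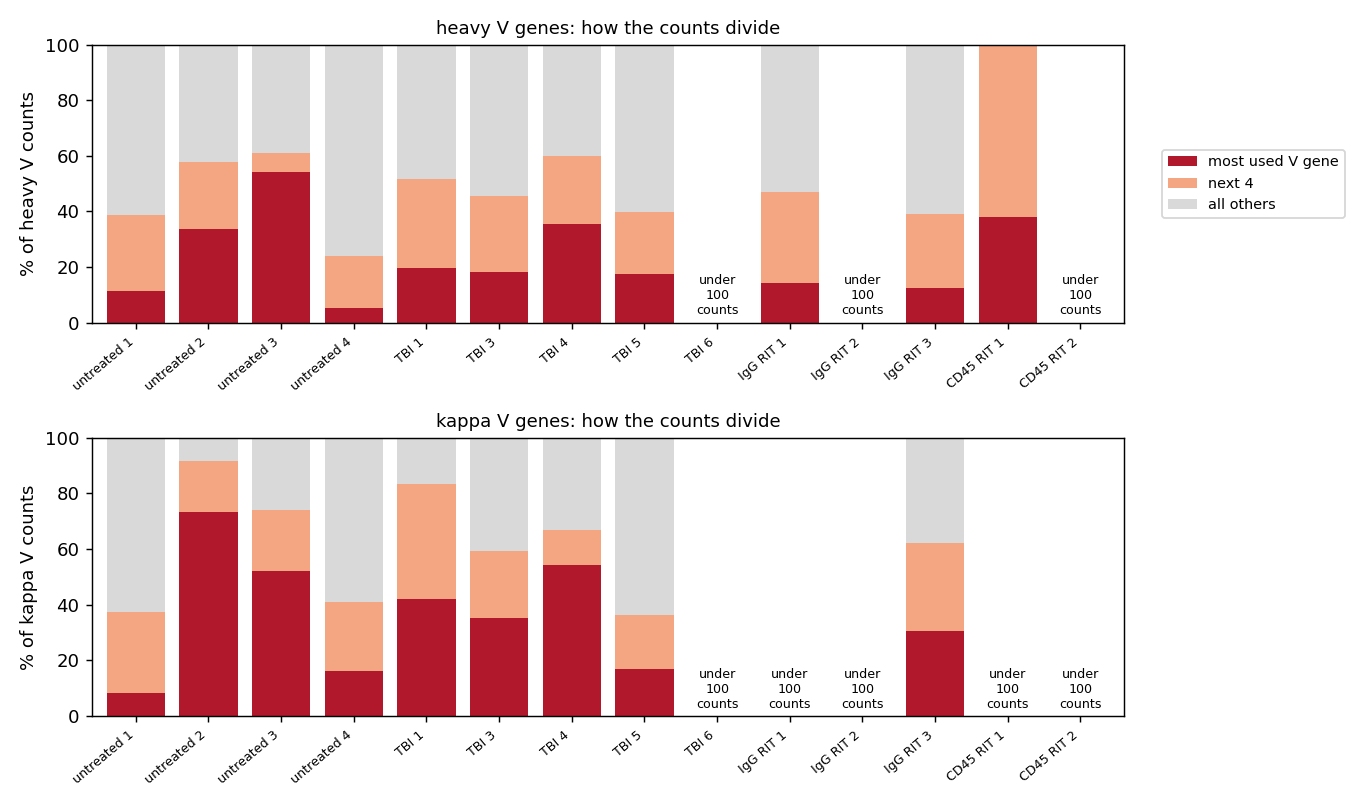
Share of heavy (upper) and kappa (lower) V counts, in percent, taken by the most used V gene, the next 4 and all others, 1 bar per library with at least 100 such counts. The darkest segment reaches 54.0% for heavy V genes in untreated replicate 3 and 73.2% for kappa V genes in untreated replicate 2, and only 5.33% and 8.09% in the most even untreated libraries.

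The Ighv1 family, whose members lie in the distal part of the locus at 1057 kb or more from the J cluster, took 61.2, 74.4, 75.2 and 55.5% of heavy V counts in untreated libraries. In TBI it took 33.3 to 53.1% in the 4 libraries with at least 100 heavy V counts. The untreated values lay above all 4 TBI values, and also above those of IgG RIT replicates 1 and 3 (32.6 and 52.3%). CD45 RIT replicate 1, with 62 of 100 heavy V counts, lay within the untreated range. Ighv5-2, the member nearest to the J cluster at 149 kb, took up to 3.85% of heavy V counts in untreated libraries. In the TBI libraries with at least 100 heavy V counts it took 5.65, 1.01, 3.77 and 10.6% in replicates 1, 3, 4 and 5. The 2 groups thus overlapped, and TBI replicate 3 lay below every untreated library. In TBI replicate 6, below that limit of 100 counts, Ighv5-2 had 6 of 26 heavy V counts. It had 0 counts in all RIT libraries. Of 175 V members, 84 had most of their summed CPM in 1 library, 44 of them in untreated replicate 3. Members with more than 3 counts numbered 68, 100, 169 and 107 in untreated, and 76, 94, 54, 109 and 16 in TBI. They numbered 37, 16 and 61 in IgG RIT and 7 and 1 in CD45 RIT.

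Counts of V genes relative to C genes also differed between groups. For every 100 heavy C counts there were 5.99, 8.34, 12.5 and 7.00 heavy V counts in untreated and 3.88, 3.51, 2.83, 2.46 and 2.19 in TBI. IgG RIT libraries had 10.8, 4.46 and 7.37, and CD45 RIT libraries 11.7 and 0.0429. Every TBI library, replicate 6 included, lay below every untreated and IgG RIT library. CD45 RIT replicate 2 held 2332 Ighm counts with 1 count of any heavy V gene and 0 of any J or D gene. The kappa ratio was 54.2 ± 10.7 for untreated libraries (SD, n = 4), and for TBI libraries, which overlapped them, 45.6 ± 9.32 (SD, n = 4).

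Genes of the B lineage did not all move with the immunoglobulin genes. Ighm was compared with Cd79a, which encodes a signalling partner of the B cell receptor and is made from the precursor stage on. For every 100 Cd79a counts there were 411, 387, 317 and 375 Ighm counts in untreated, and 149, 192, 188, 166 and 172 in TBI, without overlap. IgG RIT had 396, 174 and 275, and CD45 RIT 157 and 457. Igll1, the surrogate light chain gene of precursor B cells, had 35.6, 32.8, 38.6 and 36.0 counts for every 100 of Ighm in untreated, and 101, 94.1, 86.3, 91.9 and 99.1 in TBI, again without overlap. IgG RIT had 31.5, 67.9 and 55.3, all below TBI, and CD45 RIT had 121 and 43.4. These ratios were chosen after seeing the data and are a description. TBI replicate 6 had both ratios within the range of the other TBI libraries, although its total immunoglobulin level was near that of IgG RIT.

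**Figure D4:**
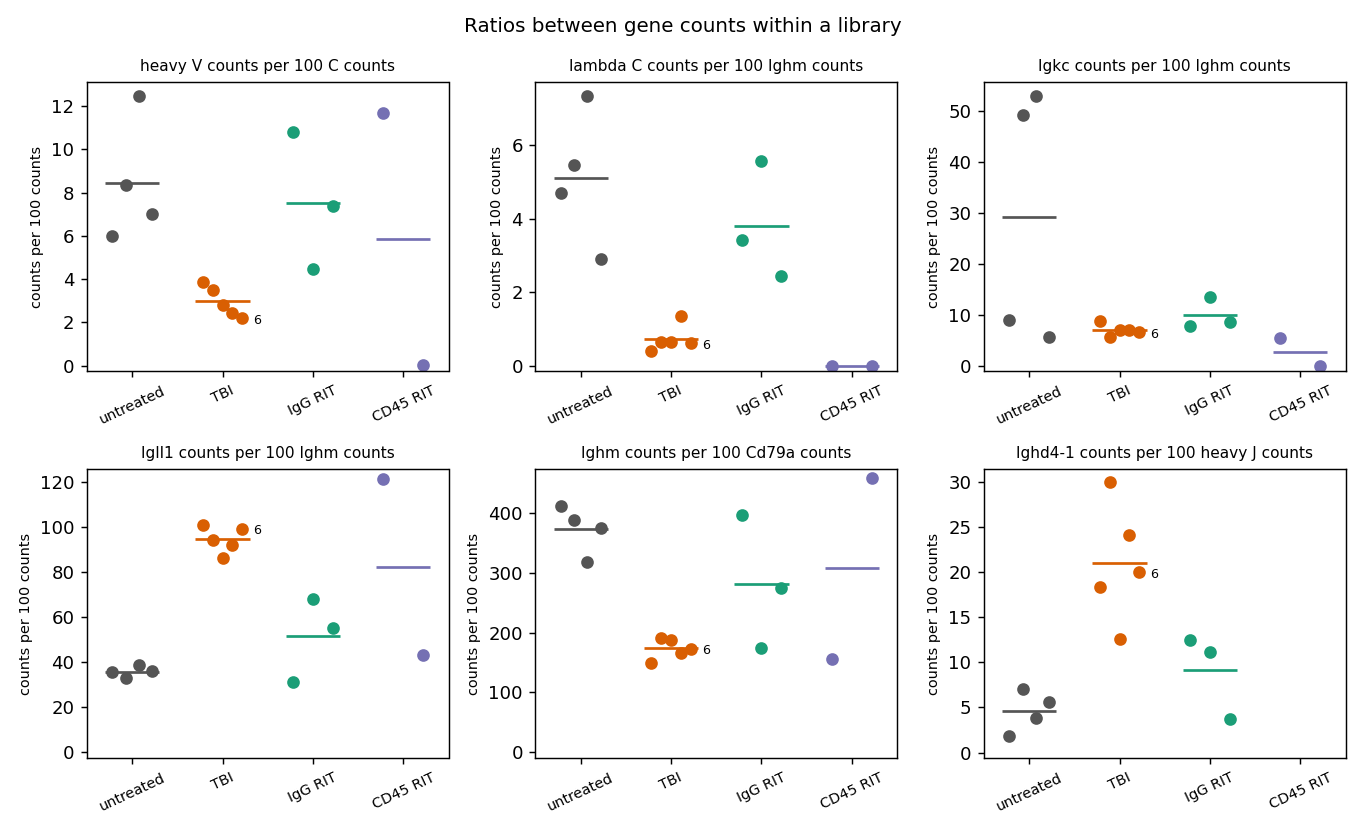
Ratios of counts within a library, in counts of 1 gene or group for every 100 counts of another, 1 point per library and a line at each group mean. Untreated and TBI points do not overlap for heavy V per C (5.99 to 12.5 against 2.19 to 3.88), lambda C, Igll1 per Ighm (32.8 to 38.6 against 86.3 to 101), Ighm per Cd79a and Ighd4-1 per heavy J, while they overlap for Igkc per Ighm. CD45 RIT libraries had no heavy J counts and have no point in the last panel.

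For lambda C genes the ratio to 100 Ighm counts was 4.70, 5.46, 7.34 and 2.91 in untreated and 0.404, 0.651, 0.651, 1.35 and 0.611 in TBI. IgG RIT libraries, with 3.42, 5.58 and 2.45, overlapped untreated, and CD45 RIT libraries had 0. The corresponding ratio of Igkc was 8.96, 49.3, 53.1 and 5.69 in untreated and 5.71 to 8.71 in TBI, so the spread within untreated exceeded the difference between groups.

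Of a list of 24 precursor B and B cell genes, all were tested. In TBI against untreated, 0 were called higher and 0 lower, and the median log2 fold change was 0.57, against -0.16 over all genes. In IgG RIT 0 were higher and 2 lower (Bank1 and Pou2f2), beside 10.7% of all genes called lower, and the list median was -1.66, against -0.42 over all genes. In CD45 RIT 0 were higher and 9 lower: Cd79a, Pax5, Rag1, Rag2, Ms4a1, Cd22, Blk, Bank1 and Pou2af1. In that comparison 18.6% of all genes were called lower, and the list median was -2.29, against -0.37 over all genes. Cd79a fell by 2.55 ± 0.86 log2 units (SE, edgeR, adjusted p = 0.0379), about as far as Ighm. Pax5, the B lineage transcription factor, Rag1 and Rag2, the recombinase that joins the segments, and Pou2af1, a coactivator at immunoglobulin promoters, had 0 counts in both CD45 RIT libraries. Ebf1, listed as an early B cell factor and also made by marrow stroma, had 5374 and 7809 counts there, beside the high stromal sums.

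Of 16 plasma cell genes, 15 were tested. In TBI against untreated 0 were higher and 3 lower (Sdc1, Xbp1 and Fkbp11), in IgG RIT 1 higher and 5 lower, and in CD45 RIT 5 higher and 4 lower. Over all genes 0.921% were called higher and 3.38% lower in TBI, 5.75% and 10.7% in IgG RIT, and 14.5% and 18.6% in CD45 RIT. The 5 that rose in CD45 RIT were the surface proteoglycan Sdc1, the secretory regulator Xbp1, the protein folding genes Fkbp11 and Txndc5 and the elongation factor Ell2, none of which is restricted to plasma cells. Mzb1, Irf4, Tnfrsf13b and Sec11c were the 4 that fell. Jchain, which links secreted IgM and IgA, had 1864 and 4358 counts in untreated replicates 2 and 3 and 0 in replicates 1 and 4. It had 186, 30, 81, 4 and 0 in TBI and 0 in all RIT libraries. The untreated libraries with Jchain were those with high Igkc and with 882 and 14563 Igha counts, against 0 and 10 in replicates 1 and 4. In replicates 2 and 3 the leading V gene took 33.6 and 54.0% of heavy V counts. It took 73.2 and 52.1% of kappa V counts. The heavy share of replicate 2 was below the 35.6% of TBI replicate 4. The part of cell composition in these values was not tested.

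Of the 202 members, 116 passed the filter on low counts and were tested gene by gene among 21509 genes. Many of them passed through the untreated libraries, where they are high, so medians and counts over the tested members are a description. Fold changes, standard errors (SE) and adjusted p-values below are from edgeR's quasi-likelihood test on all 14 libraries with Benjamini-Hochberg adjustment over all genes, and a gene was called at an adjusted p under 0.05. For a gene with no more than 3 counts in each library of the treated group, only a lower bound is given, computed with 3 counts in place of each such library. Comparisons with untreated share the same 4 control libraries.

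In TBI against untreated, 3 of the 8 lambda members and 1 heavy V gene were called lower. Of the 116 tested members 4 were called, all lower, while 4.31% of all genes were called, 3.38% lower and 0.921% higher. At an unadjusted p under 0.05 the counts were 26 members and 18.2% of all genes. Iglc1 fell by 4.17 ± 0.80 log2 units (SE, adjusted p = 0.0152), from 14.2 to 0.777 mean CPM. Iglc2 fell by 5.26 ± 1.29 (adjusted p = 0.0445) and Iglv1 fell by 3.66 ± 0.80 (adjusted p = 0.0278). The fourth was Ighv1-81, with 95, 14, 108 and 54 counts in untreated and at most 7 in TBI, which fell by 4.17 ± 0.89 (adjusted p = 0.0326). The log2 difference was -0.28 ± 0.59 for Ighm (adjusted p = 0.887), -2.62 ± 1.04 for Igkc (adjusted p = 0.196) and 0.67 ± 0.92 for Ighg2b (adjusted p = 0.809). None of these 3 passed, nor did Iglc3. The share of members called, 3.45%, was near the background. Of the 4 calls, only that of Iglc1 was kept whichever of the 14 libraries was left out, and the number of calls ranged from 1 to 12. It was 1 without untreated replicate 3, TBI replicate 3 or TBI replicate 4, and 2 without untreated replicate 1 or 2 or TBI replicate 1 or 5. It was 11 and 12 without CD45 RIT replicate 1 or 2, where more members passed the filter. Without untreated replicate 3 the log2 difference of Ighm was 0.16.

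In IgG RIT against untreated, 8 tested members were called, all lower, beside 16.4% of all genes called, 10.7% lower and 5.75% higher. At an unadjusted p under 0.05 these were 48 members and 33.0% of all genes. Ighg2b, at 0 counts in the 3 IgG RIT libraries, was at least 73.2-fold lower (adjusted p = 0.00759). Ighv1-72 and Ighv1-81 were at least 15.5-fold and 13.1-fold lower, also from 0 counts. The value of Ighv1-72 rests largely on 212 counts in untreated replicate 2, against 16, 85 and 9 in replicates 1, 3 and 4. Its call was kept in 12 of 14 fits that left out 1 library. Ighj1 fell by 3.04 ± 0.88 log2 units (SE, adjusted p = 0.0366). The other calls were Ighv5-2, Ighv1-5, Igkv8-21 and Igkv9-124. The log2 difference was -1.86 ± 0.71 for Ighm (adjusted p = 0.0920), -3.84 ± 1.35 for Igkc (adjusted p = 0.0705) and -2.79 ± 0.92 for Iglc1 (adjusted p = 0.0608), so these did not pass although all 3 libraries lay below all untreated ones. The members' share of calls, 6.90%, was below the background. The count was 13 without untreated replicate 1, 5 without IgG RIT replicate 1, and 25 and 22 without CD45 RIT replicate 1 or 2. The call of Ighj1 was lost without any 1 of untreated replicates 2, 3 and 4, TBI replicates 1 and 3 or the IgG RIT libraries.

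In CD45 RIT against untreated, 6 of the 9 constant members were called lower, with at least 1 from each chain. Of the tested members 26 were called, all lower, beside 33.1% of all genes called, 18.6% lower and 14.5% higher. The members' share was 22.4%. At an unadjusted p under 0.05 these were 61 members and 45.5% of all genes. Ighm fell by 2.86 ± 0.88 log2 units (SE, adjusted p = 0.0266) and Igkc fell by 7.23 ± 1.96 (adjusted p = 0.0145). Iglc1, Iglc3 and Iglc2, at 0 counts in both libraries, had lower bounds of 87.1-fold, 62.8-fold and 55.7-fold for their fall, with adjusted p-values of 0.00126, 0.00371 and 0.0151. Ighg2b was at least 71.8-fold lower (adjusted p = 0.00788). Among V genes, Ighv1-82 was at least 167-fold lower (adjusted p = 0.0335), a value that rests on its 3200 counts in untreated replicate 3, and Iglv1 at least 80.4-fold (adjusted p = 0.00152). Ighj1 and Ighj4 were at least 20.8-fold and 8.06-fold lower. The other calls were the J gene Ighj2, the D genes Ighd4-1 and Ighd2-4 and the V genes Ighv1-5, Ighv1-23, Ighv1-26, Ighv1-64, Ighv1-72, Ighv1-81, Ighv5-2, Ighv9-3, Ighv14-2, Igkv8-21, Igkv9-124, Igkv17-127 and Iglv3. Igha, with 0 and 1 counts, was not called (adjusted p = 0.114), and its untreated counts ran from 0 to 14563. Of the 26 calls 11 were kept in every fit that left out 1 library. The count was 12 without CD45 RIT replicate 2, and the call of Ighm was lost without untreated replicate 3 or CD45 RIT replicate 1, with an adjusted p of up to 0.0972.

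In CD45 RIT against IgG RIT 7 tested members were called, all lower, of which 3 were lambda and 4 heavy chain genes, beside 37.7% of all genes called, 17.5% lower and 20.2% higher. Their share of 6.03% was below the background. At an unadjusted p under 0.05 these were 18 members and 47.8% of all genes. Iglc3 was at least 15.9-fold lower, with an adjusted p of 0.00847, and Iglc1 at least 12.6-fold, with 0.00457. Iglv1, with 0 counts against a mean of 2.28 CPM, was also called (adjusted p = 0.00472). Ighv14-2, Ighv9-3, Ighj1 and Ighj4 were at least 6.06-fold, 4.98-fold, 2.50-fold and 2.32-fold lower. Ighm, at 81.8 ± 42.6 CPM (SD, n = 2) against 164 ± 120 (SD, n = 3), did not pass (edgeR adjusted p = 0.353). Neither did Igkc, with a log2 difference of -3.39 ± 1.64 (SE, adjusted p = 0.121). The count was 11 without IgG RIT replicate 2.

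In CD45 RIT against TBI 16 tested members were called, all lower, beside 38.6% of all genes called, 19.0% lower and 19.6% higher, and the members' share was 13.8%. At an unadjusted p under 0.05 these were 29 members and 48.9% of all genes. Ighg2b was at least 114-fold lower (adjusted p = 0.00481), Ighj1 at least 22.9-fold, Iglc3 at least 18.0-fold, Ighv14-2 at least 16.9-fold and Ighd4-1 at least 9.57-fold lower (adjusted p = 0.00363). Ighm fell by 2.58 ± 0.86 log2 units (SE, adjusted p = 0.0315) and Igkc fell by 4.61 ± 1.70 (adjusted p = 0.0485). The remaining calls were Iglc1, Iglv1, Ighj2, Ighj3, Ighj4, Ighd1-1, Ighd2-4, Ighv5-2 and Igkv9-124. The call of Ighm was lost without TBI replicate 3 or 5 or CD45 RIT replicate 1. That of Igkc held in 5 of 14 fits that left out 1 library. It was lost without untreated replicate 2, TBI replicate 1, 3, 4 or 5, any IgG RIT library or CD45 RIT replicate 2.

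Between IgG RIT and TBI no immunoglobulin gene was called by edgeR, beside 0.242% of all genes (0.172% lower and 0.0697% higher). At an unadjusted p under 0.05 these were 23 of the 116 members and 18.5% of all genes, and DESeq2 called 7 members. Ighg2b, at 0 in IgG RIT and 7 to 1341 counts in TBI, was at least 116-fold lower, with an adjusted p of 0.0601. Ighd4-1 was at least 9.76-fold lower, with an adjusted p of 0.0857. The log2 difference of Ighm was -1.58 ± 0.68 (SE, edgeR adjusted p = 0.243). Without TBI replicate 6, the library close to IgG RIT in level, 7 members were called, and 5 without CD45 RIT replicate 1 or 2.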

How the data were processed

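RNA of sorted marrow cells was sequenced in 14 libraries of 4 treatment groups, assigned by the treatment label. The values the authors deposited are raw counts of reads, 1 row per gene and 1 column per library, beside gene types and coordinates. STAR 2.7.7a, FastQC 0.11.9, edgeR 3.36.0 and the build hg38 are named in the submitters' processing notes, without their roles; the counter, the use of strand and the handling of shared reads are not given in the sources used here. The deposited coordinates are those of mouse build GRCm38: 54587 gene identifiers matched GENCODE M21, all with the same position. Members were taken by gene type and a minimum of 10 summed counts. The members and all lists were chosen with earlier results of these data known.

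Counts were fitted in R 4.3.3 with edgeR 4.0.16: filterByExpr (minimum count 10, minimum total 15), TMM factors, a robust quasi-likelihood model with 1 coefficient per group over all 14 libraries, 6 contrasts and Benjamini-Hochberg adjustment over 21509 genes at 0.05. The SE of a log2 difference was obtained from its size and the root of its F statistic. CPM of single genes used the TMM-scaled size, and summed CPM the total count. Lower bounds use a floor of 3 counts in each library. Shares needed 100 counts and have 95% Wilson intervals, which cover counting error only. The fit was tested on simulated counts. DESeq2 1.42.0 and other alternatives are in the closing section. Named genes were all C and J members, the 5 leading V genes of each chain, the leading V gene of each library, the 3 largest falls called in each contrast and the genes of the B and plasma cell lists; others are named as called or chosen after their values were seen.

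No 2 libraries of the same group were close enough to be repeats: the closest such pair had a chi-square of 17.2 per gene. Pairs from different groups were not compared in this way. The 14 libraries include no TBI replicate 2, and 0 sample columns of the count table were left unassigned. A planned search for a promoter motif was not run, because 0 of 202 members matched the RefSeq promoter table. The C genes Ighg2c, Ighg3 and Iglc4, at 0 counts, and Ighe fell outside the member rule.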

Additional observations from a re-analysis of the deposited data

Results flagged for a closer look

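In groups of 4 or 5 libraries, a library was marked where its gap to the nearest other exceeded Dixon's 95% critical value. Of 86 groups examined 17 were marked, while chance marks about 1 in 20. Untreated replicate 3 accounted for 8. It was the highest untreated library in summed heavy C (1916 CPM, others up to 636), lambda C (94.7 CPM, others up to 30.1), heavy V (239 CPM, others up to 53.0) and lambda V genes (50.2 CPM, others up to 14.4). It also stood apart in Igha (486 CPM, 30.7% of heavy C counts) and Iglc1 (35.1 CPM), and it was the lowest in kappa V counts for every 100 kappa C counts (38.3, others at least 57.7). These values share 1 library and many of the same reads, so they are not separate signals.

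Untreated replicate 2 stood apart in Ighg1 (30.4 CPM, 5.79% of heavy C counts, with 0 in the other 3). TBI replicate 4 stood apart in Igha (18.6 CPM, 3.79% of heavy C counts) and in its most used heavy V gene, Ighv1-63 (35.6%, others up to 19.8%). TBI replicate 5 had the highest lambda C to Ighm ratio of its group (1.35 counts for every 100), the lowest share of the Ighv1 family (33.3%) and the highest share of the Ighv5 and Ighv2 families (24.7%). TBI replicate 6 had the highest Ighd share (2.95% of heavy C counts, from 35 Ighd counts).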

How the results depend on the processing

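Counts of called members depended on the fit. In TBI against untreated the 4 calls became 0 with the replicate block, 9 with only the 2 groups, 9 with DESeq2 and 1 to 12 when 1 library was left out. In IgG RIT against untreated the 8 became 23 without scaling factors, 5 with the replicate block, 20 with DESeq2 and 5 to 25 when 1 library was left out. In CD45 RIT against untreated the 26 became 11 with the replicate block, 42 with DESeq2 and 12 to 35 when 1 library was left out. Against IgG RIT the 7 became 2 with only the 2 groups, 18 with DESeq2 and 6 to 11 when 1 library was left out. Against TBI the 16 became 9 with the replicate block and 11 to 19 when 1 library was left out. Between IgG RIT and TBI the 0 became 2 without scaling factors, 1 without the filter, 3 with only the 2 groups, 7 with DESeq2 and 0 to 7 when 1 library was left out. Of 61 gene calls, 22 held under every alternative. Of 1455 values of single genes under an alternative, 1257 kept their side of the threshold and their direction, 166 were no longer called, 31 were newly called and 1 turned direction, that of Ighm in TBI against untreated (0.16 without untreated replicate 3, -0.47 without TBI replicate 5, with every other leave-one-out value between them).

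Same-numbered libraries of different groups did not deviate together: their correlations ran from -0.0859 to 0.135 over 13 pairs, and 1 pair exceeded 0.1. The block therefore carries no stated pairing.

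With V families summed, the mean leading heavy share was 66.6% in untreated (n = 4), 47.6% in TBI (n = 4) and 42.4% in IgG RIT (n = 2). In CD45 RIT it was 62.0%, from 1 library with 100 heavy V counts. The leading kappa share in IgG RIT, also from 1 library, was 30.4%. Leaving out 1 library moved the mean summed CPM to 825 to 1723 in untreated, 598 to 848 in TBI, 106 to 227 in IgG RIT and 43.4 to 87.0 in CD45 RIT. The kappa share moved to 73.2 to 81.4% in untreated, 88.5 to 92.3% in TBI and 70.3 to 74.4% in IgG RIT. The most used heavy V gene moved to 16.8 to 33.0%, 18.5 to 24.6% and 12.5 to 14.4% in these groups, and the most used kappa V gene to 25.4 to 47.1% in untreated and 31.5 to 43.9% in TBI. Possible amplified copies, 2 CD45 RIT libraries, near-identical V genes and V counts under 100 in several libraries limit the precision.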
